A study of Mus musculus with 9 samples.

Results

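The small nuclear and nucleolar RNA genes were taken from the raw count table of mouse gastrocnemius by symbol (Snora, Snord, Scarna, Rnu or Rn7s at the start) and by a minimum of 30 counts summed over all 9 libraries. Of 56791 genes in the table, 176 carry such a symbol and 22 reached the minimum. The 22 are 11 C/D snoRNA genes, 8 H/ACA snoRNA genes, 2 scaRNA genes and the 7SK gene Rn7sk, and together they held 2183 of the 2571 counts of the 176 genes. Just inside the minimum stood Snora78, Snora21 and Scarna6 with 30 counts each and Snord53 and Snord35a with 33. Just outside it stood Snora23 with 29, Snord37 and Snord73b with 28, Snord58b with 25 and Snord83b with 22. The series sequenced RNA of the gastrocnemius, a calf muscle, from female mice in 3 groups of 3 libraries. The young vehicle group (3M in the sample titles) and the aged vehicle group (23M in the titles) received saline by daily gavage for 2 months. The aged GB group received ginkgolide B (GB), a terpene lactone of the ginkgo tree, at 12 mg per kg daily by gavage for 2 months; its titles carry no age in months. The labels name no strain and do not tie each library to its own animal, so every p-value here is set against the spread between libraries, which may be technical.

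Small nucleolar RNAs pair with other RNAs and carry proteins that modify a chosen base. Those with C and D boxes direct 2′-O-methylation through fibrillarin, and those with H and ACA boxes direct pseudouridylation through dyskerin. Small Cajal body RNAs (scaRNAs) do the same for the spliceosomal snRNAs, which recognise splice sites. 7SK, an RNA polymerase III transcript, holds the elongation kinase P-TEFb in an inactive particle with HEXIM proteins, and 7SL is the RNA core of the signal recognition particle. In mammals most snoRNAs are cut from introns of host genes, and most mature RNAs of these classes have no poly(A) tail, whereas a KAPA mRNA kit, of a type that captures poly(A) RNA, was used on the total RNA here.

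The sequences below are those of the 8 genes on which the results turn. They are the GENCODE M21 transcripts, 5′ to 3′, on mouse build GRCm38; the build of the count table is not settled, so these positions apply to the printed sequences alone. The table's length equals the GENCODE length for 21 of the 22 genes, and Snord138 had no entry there. Of 7SK (Rn7sk, minus strand, 331 bases) the first 150 bases are shown (chr9:78175484-78175633). Capitals mark GATC at its 2 places in the first 60 bases, and a further GATC just beyond them is left in lower case.
Rn7sk: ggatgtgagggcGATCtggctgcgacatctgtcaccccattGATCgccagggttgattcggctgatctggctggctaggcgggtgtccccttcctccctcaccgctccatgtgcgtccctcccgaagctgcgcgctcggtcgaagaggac
In the H/ACA genes Snora31 (chr14:75847905-75848034, plus strand), Snora57 (chr19:8888538-8888685, minus strand) and Snora30 (chr7:127527874-127528003, plus strand), capitals mark the ACA that stands 3 bases before the 3′ end.
Snora31: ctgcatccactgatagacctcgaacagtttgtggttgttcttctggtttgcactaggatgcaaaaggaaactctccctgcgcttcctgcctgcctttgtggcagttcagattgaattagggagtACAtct
Snora57: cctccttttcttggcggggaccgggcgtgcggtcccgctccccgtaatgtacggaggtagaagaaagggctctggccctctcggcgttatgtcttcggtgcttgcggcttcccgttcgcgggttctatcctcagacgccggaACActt
Snora30: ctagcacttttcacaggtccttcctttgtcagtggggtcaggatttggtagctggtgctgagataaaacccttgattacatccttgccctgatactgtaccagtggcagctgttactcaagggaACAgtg
In the C/D genes Snord91a (chr11:74905424-74905516, plus strand), Snord72 (chr15:5118404-5118484, plus strand), Snord53 (chr17:71640879-71640956, plus strand) and Snord59a (chr10:128084143-128084216, plus strand), capitals mark TGATG within the first 20 bases (the C box) and CTGA within the last 20 (the D box).
Snord91a: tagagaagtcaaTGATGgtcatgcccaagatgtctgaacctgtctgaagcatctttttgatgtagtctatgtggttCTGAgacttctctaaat
Snord72: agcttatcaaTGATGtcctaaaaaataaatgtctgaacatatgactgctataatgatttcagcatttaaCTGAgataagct
Snord53: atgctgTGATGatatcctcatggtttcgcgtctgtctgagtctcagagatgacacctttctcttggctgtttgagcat
Snord59a: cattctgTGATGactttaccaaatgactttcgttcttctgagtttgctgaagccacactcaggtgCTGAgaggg
Both boxes were found in 8 of the 10 C/D members with a sequence. Snord53 above holds TGATG without CTGA in its last 20 bases, and Snord71 holds CTGA without TGATG in its first 20. Among all 97 Snord transcripts 86.6% held both, against 0.101% of the first 84 bases of 21840 protein-coding transcripts. All 8 H/ACA members held ACA at that place, as did 85.0% of 40 Snora transcripts and 1.4% of the first 132 bases of 21817 protein-coding transcripts. GATC at 2 or more places occurred in 0.736% of the first 60 bases of 21864 protein-coding transcripts. These letters were searched on the transcript strand (GATC reads the same on both strands), and a match describes the sequence only.

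Total counts per library were 51543383 to 61680520 in the vehicle groups and 39478427 to 44294097 with GB, and 3 counts, the upper limit that a count of 0 allows, equalled 0.0486 to 0.0582 ppm (counts per 1000000 library counts) in a vehicle library and 0.0677 to 0.0760 in a GB library. Intervals and limits given here cover counting error only. Fold limits for a group at 0 take the aged vehicle level as counted and leave out its counting error. The GB libraries stood apart: mitochondrially encoded genes held 24.3 to 26.1% of their counts, against 8.60 to 10.2% in young and 13.9 to 15.3% in aged vehicle libraries. The sums of 10 skeletal muscle markers did not overlap between groups: 133177 to 146326 CPM in young vehicle, 107771 to 118648 in aged vehicle and 172077 to 197345 with GB, where 5 markers were higher and 3 lower than in aged vehicle. CPM here are counts per 1000000 of TMM-scaled library size.

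Detection came first, because most of the 176 genes had no count at all. Only 60 had a count in any library, and 40 had 10 or more over all libraries. Genes of the spliceosomal RNAs were all but missing: of 9 genes of the major class 8 were at 0 and Rnu5g had 1 count, in a GB library, and of 3 genes of the minor class Rnu11 and Rnu4atac were at 0 and Rnu12 had 1 count, in a young vehicle library. All 3 U7 genes, Rnu7 among them, were at 0. Of the 7SL genes, Rn7s1 and Rn7s6 were at 0 and Rn7s2 had 2 counts in each of 2 GB libraries. Snord118 (U8) and Snord13, which act in ribosomal RNA processing, were at 0 throughout, as were Rmrp and Rpph1, the RNAs of RNase MRP and RNase P. U3 is listed as Snord3 genes, of which Snord3a had 10 counts in all; no gene is named Rnu3a. Terc, the telomerase RNA, had 1, 0 and 6 counts in the young vehicle libraries and 0 in the other 6. None of the 19 Snord genes of the imprinted clusters in the table had a count.

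Fewer of these genes were seen with GB. Of the 176, 40 to 45 had a count in a young vehicle library, 35 to 46 in an aged vehicle library and 20 to 25 in a GB library. Among the 38 genes with 1 to 29 counts in all, 32 had a count in the young vehicle group, 30 in the aged vehicle group and 13 in the GB group, with 164, 175 and 49 counts. The GB libraries were also shallower and held fewer genes of any kind (18678 to 19362 genes with a count, against 22616 to 24185). Of the 22 members, 19 to 22 had a count in each vehicle library and 15 to 18 in each GB library.

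As a share of all counts, the 22 genes were rare in every library. Their summed share was 2.91 ± 0.0845 ppm (SD, n = 3) in young vehicle, 3.31 ± 0.471 in aged vehicle and 9.33 ± 4.37 in GB libraries. The single GB libraries stood at 6.64, 6.98 and 14.4, all above the highest vehicle library at 3.84. 7SK made up most of that difference between the means, with 1.70, 2.64 and 8.93 ppm in the single GB libraries in the same order. Its share was 0.0956 ± 0.0605 ppm in young vehicle, 0.164 ± 0.116 in aged vehicle and 4.42 ± 3.93 with GB (n = 3 each). The summed share without it was 2.82 ± 0.0759 in young vehicle and 4.91 ± 0.555 with GB.

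The classes differed in pattern. The H/ACA share was 1.15 ± 0.143 ppm in young vehicle, 1.19 ± 0.0650 in aged vehicle and 2.65 ± 0.132 with GB (SD, n = 3 each). The 6 vehicle libraries ran from 1.02 to 1.30 and the GB libraries from 2.57 to 2.81, so the groups did not overlap. The C/D share was 1.61 ± 0.172, 1.76 ± 0.572 and 1.84 ± 0.620 in the same order, and the GB range of 1.13 to 2.25 overlapped the aged vehicle range of 1.42 to 2.42. Both scaRNA genes together held 0.0625 ± 0.0308, 0.189 ± 0.0763 and 0.408 ± 0.215 ppm, with GB libraries at 0.203 to 0.632 and aged vehicle libraries at 0.115 to 0.268. Inside that sum the scaRNA genes went opposite ways, as given below. These sums are described without a test.

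**Figure D1:**
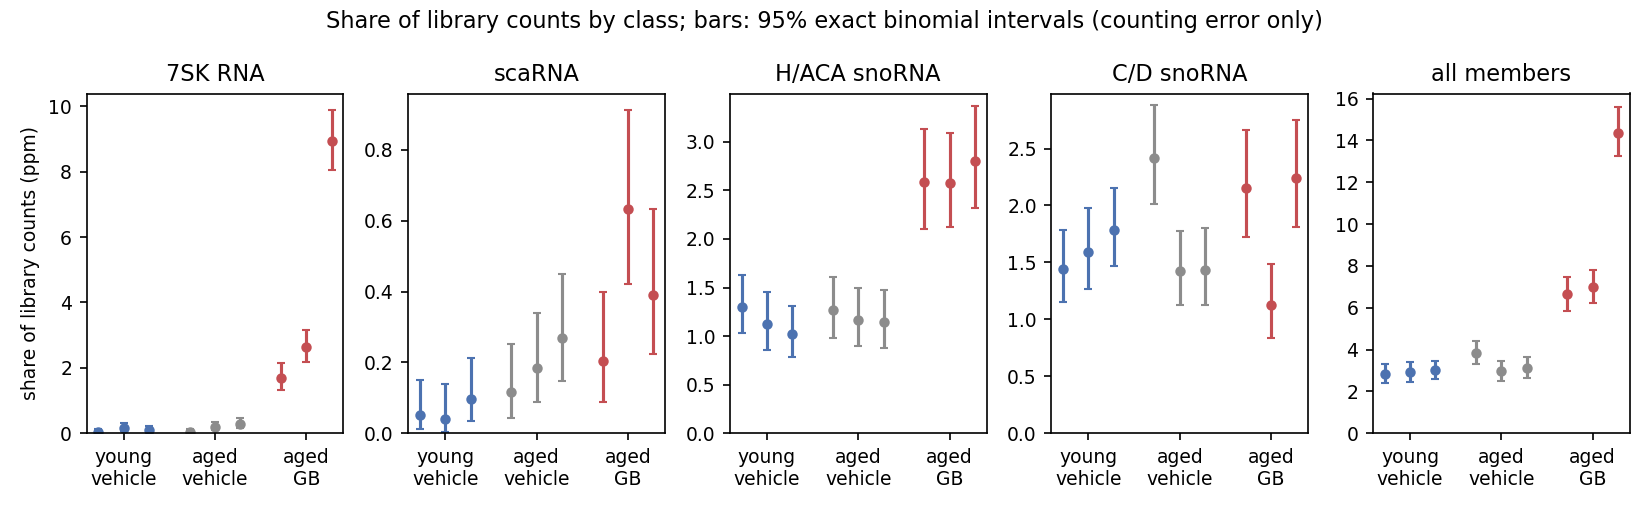
Share of library counts in ppm (vertical axes) for each class and for all 22 genes in the 9 libraries, as points with exact 95% binomial intervals. 7SK stood at 1.70 to 8.93 in the GB libraries and at most at 0.268 in a vehicle library, the H/ACA groups did not overlap, and the C/D groups did.

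**Figure D2:**
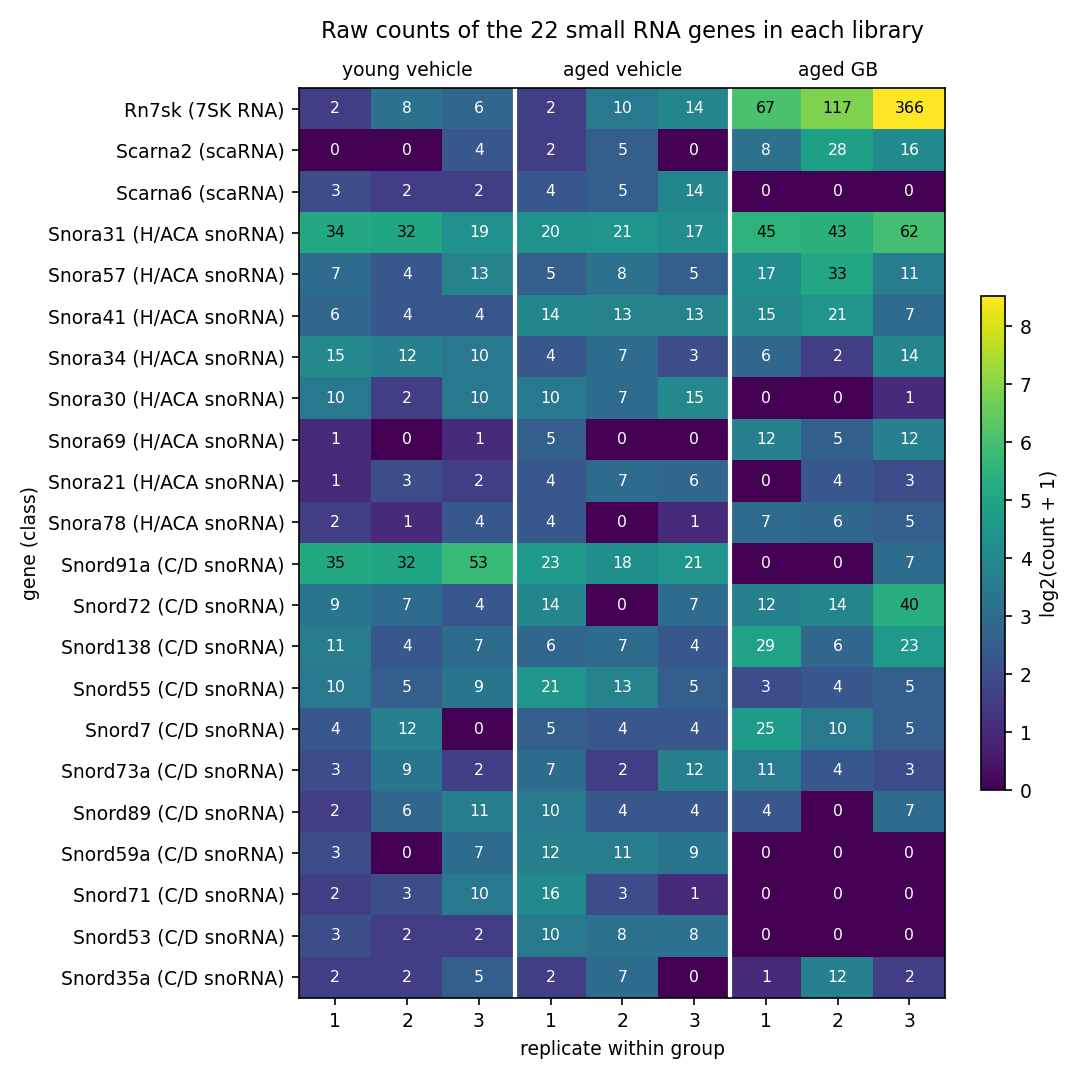
Raw counts of the 22 genes (rows) in the 9 libraries (columns), printed in each cell and coloured by log2(count + 1). Rn7sk has 67 to 366 counts in the GB libraries, and Snord59a, Snord71, Snord53 and Scarna6 have none there.

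7SK gave the largest difference with GB among the 9 members kept by the filter on low counts. Rn7sk had 2, 8 and 6 counts in the young vehicle libraries, 2, 10 and 14 in the aged vehicle libraries and 67, 117 and 366 with GB. All 3 GB libraries were above all 6 vehicle libraries, and the third held 366 of the 550 GB counts. The exact Poisson intervals of the GB counts were 51.9 to 85.1, 96.8 to 140 and 329 to 405, so the GB libraries also differed from each other beyond counting error. The mean level was 0.0849 ± 0.0546 CPM in young vehicle, 0.141 ± 0.0984 in aged vehicle and 5.78 ± 5.17 with GB (SD, n = 3 each). Rn7sk rose with GB against aged vehicle by 5.32 ± 0.79 on the log2 scale (SE; edgeR's quasi-likelihood test, Benjamini-Hochberg adjusted p = 0.000157). Without the third GB library the log2 fold change was 4.28 (adjusted p = 0.000467, edgeR). Rn7sk has many near-identical copies in the mouse genome, and how reads shared between copies were counted is not given in the sources used here, so its level is uncertain. Per length, Rn7sk stood at 0.256, 0.426 and 17.5 CPM per kilobase in young vehicle, aged vehicle and GB; Snora31, the next by mean CPM, stood at 3.41, 2.47 and 12.1 on the same scale.

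Other noncoding RNAs were called in the same comparison. The mitochondrial ribosomal RNA mt-Rnr1 had a level of 361 ± 57.6 CPM in young vehicle, 745 ± 69.2 in aged vehicle and 8933 ± 1582 with GB, and mt-Rnr2 had 654 ± 151, 2133 ± 503 and 8194 ± 1435 (SD, n = 3 each). With GB mt-Rnr1 rose by 3.58 and mt-Rnr2 by 1.94 on the log2 scale (edgeR, adjusted p = 5.95e-09 and 4.26e-05). The long nuclear RNA Malat1 went the other way, from 680 ± 127 CPM in aged vehicle to 174 ± 55.4 with GB, a log2 fold change of -1.96 (edgeR, adjusted p = 0.000116). Neat1, which scaffolds paraspeckles, rose by 1.46 (adjusted p = 0.0151, edgeR) from 806 ± 349 to 2221 ± 727 CPM. Rn18s-rs5, listed with the ribosomal RNAs, had 788, 926 and 1048 counts in aged vehicle and 968, 1215 and 2130 with GB. Its mean level was 15.2 ± 1.76 CPM in aged vehicle and 45.1 ± 20.1 with GB. GB library 3 was its highest, as for Rn7sk, whereas mt-Rnr1 had its fewest GB counts there (227860). The part of RNA capture in the 7SK result, for which these ribosomal RNAs are the values at hand, was not tested.

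Snora31, an H/ACA RNA of ribosomal RNA, was the most abundant snoRNA by mean CPM. Its counts were 34, 32 and 19 in young vehicle, 20, 21 and 17 in aged vehicle and 45, 43 and 62 with GB. The GB libraries were above every vehicle library. Mean levels were 0.443 ± 0.150, 0.321 ± 0.0375 and 1.57 ± 0.366 CPM (SD, n = 3 each), and Snora31 rose with GB by 2.28 ± 0.46 on the log2 scale (SE; adjusted p = 0.0011, edgeR). The ratio of pooled counts, scaled by library size, was 4.88 with an exact interval of 3.58 to 6.72.

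Snora57, a second H/ACA gene, had 7, 4 and 13 counts in young vehicle, 5, 8 and 5 in aged vehicle and 17, 33 and 11 with GB. GB library 3 had fewer raw counts than young vehicle library 3, but on the CPM scale all GB libraries were above all vehicle libraries (0.352 to 0.990 against at most 0.187 CPM). Snora57 rose with GB by 2.64 ± 0.73 on the log2 scale (SE; adjusted p = 0.00886, edgeR). It lies on the strand opposite Lbhd1 in GENCODE M21, and as the use of strand in counting is not given in the sources used here, reads of such neighbours cannot be told apart.

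Of the other 6 H/ACA genes, Snora41 and Snora34 were tested with the filter on low counts and not called, and 4 did not pass that filter. Snora41 had 6, 4 and 4 counts in young vehicle, 14, 13 and 13 in aged vehicle and 15, 21 and 7 with GB, and its log2 fold change with GB was 1.00 ± 0.66 (SE; adjusted p = 0.227, edgeR). Snora34 had 15, 12 and 10, then 4, 7 and 3, then 6, 2 and 14 counts, with a log2 fold change of 1.56 ± 0.86 (SE; adjusted p = 0.148, edgeR); its sequence holds the microRNA gene Mir1291, so the reads of both cannot be told apart. Its GB libraries overlapped both vehicle groups. Snora30 had 10, 2 and 10 counts in young vehicle, 10, 7 and 15 in aged vehicle and 0, 0 and 1 with GB. Every GB library of Snora30 was below every vehicle library, and the scaled ratio to aged vehicle was 0.0589 with an exact interval of 0.00145 to 0.353. Snora69 had 1, 0 and 1, then 5, 0 and 0, then 12, 5 and 12 counts, and Snora78 had 2, 1 and 4, then 4, 0 and 1, then 7, 6 and 5. Both had GB libraries above all vehicle libraries on the CPM scale. Snora78 lies on the strand opposite Rps2 in GENCODE M21, so the limit given for Snora57 holds for it too. Snora21 had 1, 3 and 2, then 4, 7 and 6, then 0, 4 and 3 counts, and its GB libraries overlapped both vehicle groups. The summed H/ACA share thus joined genes that were above, below and within the vehicle range.

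Both scaRNA genes guide changes on spliceosomal RNAs, Scarna2 on U2 and Scarna6 on U5. Scarna2, which is transcribed on its own and lies in no host gene, had 0, 0 and 4 counts in young vehicle, 2, 5 and 0 in aged vehicle and 8, 28 and 16 with GB. The GB libraries were above all vehicle libraries, at 0.254, 0.840 and 0.512 CPM against at most 0.0789. Scarna2 rose with GB by 3.72 ± 1.17 on the log2 scale (SE; adjusted p = 0.0174, edgeR). That call was lost without aged vehicle library 1 (adjusted p = 0.0782), without aged vehicle library 3 (0.0823) or without GB library 2 (0.0736, all edgeR). Scarna6 had 3, 2 and 2 counts in young vehicle, 4, 5 and 14 in aged vehicle and none with GB. With the limit of 3 counts over the GB group, its level was at least 4.07-fold below the aged vehicle level as counted. Without aged vehicle library 3, which holds 14 of the 23 aged counts, the limit was 2.40-fold.

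Snord91a was the most abundant C/D member in the vehicle libraries. It had 35, 32 and 53 counts in young vehicle, 23, 18 and 21 in aged vehicle and 0, 0 and 7 with GB. The 3 groups did not overlap: 0.517 to 0.762 CPM, 0.284 to 0.404 CPM and 0 to 0.224 CPM in that order. Its log2 fold change with GB was -2.19 ± 0.98 (SE; adjusted p = 0.0789, edgeR) and was not called; the 7 counts of GB library 3 weighed on it, and without that library the log2 fold change was -7.26 (adjusted p = 0.00114, edgeR), against a pair of GB libraries at 0. It was also called lower with library totals (adjusted p = 0.0276, edgeR), an offset for gene length (0.0151, edgeR), DESeq2 (0.0342) and limma-voom (0.0223). The ratio of pooled counts, scaled by library size, was 0.213 with an exact interval of 0.0822 to 0.465.

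Snord72 had 9, 7 and 4 counts in young vehicle, 14, 0 and 7 in aged vehicle and 12, 14 and 40 with GB. All GB libraries were above all vehicle libraries on the CPM scale, and the log2 fold change of 2.52 ± 1.00 lay just outside the threshold (SE; adjusted p = 0.0502, edgeR). It passed with DESeq2 (adjusted p = 0.0213), limma-voom (0.0197) and upper-quartile factors (0.0417, edgeR), and without aged vehicle library 1 (0.0400) or GB library 1 (0.0429, both edgeR). Those are 5 of 20 alternatives, over which the log2 fold change of Snord72 ran from 1.28 to 3.53. In the fit of genes with 30 or more counts it was 2.48 (adjusted p = 0.0723, edgeR). Snord72 passed the filter on low counts only through its GB counts. Snord7, which guides methylation of U6 RNA, had 4, 12 and 0, then 5, 4 and 4, then 25, 10 and 5 counts, and its log2 fold change was 2.50 ± 1.08 (SE; adjusted p = 0.0704, edgeR; 0.0477 with DESeq2). The GB libraries of Snord7 were above those of aged vehicle and overlapped young vehicle. Snord138 had 11, 4 and 7, then 6, 7 and 4, then 29, 6 and 23 counts, above all vehicle libraries on the CPM scale by a margin of 0.180 against 0.162 CPM. That separation rests on the TMM scaling. As a share of library totals, GB library 2 (6 of 44294097) was below young vehicle library 1 (11 of 58293800).

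Several C/D genes had no count with GB. Snord59a had 3, 0 and 7 counts in young vehicle, 12, 11 and 9 in aged vehicle and 0 in all 3 GB libraries. That was at least 5.66-fold below the aged vehicle level as counted. Snord53 had 3, 2 and 2 counts, then 10, 8 and 8, then none, at least 4.60-fold lower on the same basis. Snord71 had 2, 3 and 10 counts, then 16, 3 and 1, then none, at least 3.54-fold lower on that basis. Aged vehicle library 1 holds 16 of its 20 aged counts, and without it the limit was 1.03-fold, from 4 aged counts. These 3 genes and Scarna6 are 4 of the 22 members (18.2%), and of all 20008 genes with 30 or more counts 5.31% had none in the GB libraries. The 4 had only 30 to 42 counts each over all libraries, whereas the 20008 include far more abundant genes. The shares are thus not matched for abundance. The remaining C/D genes overlapped between GB and aged vehicle. Snord55 ran from 5 to 10, 5 to 21 and 3 to 5 counts in the 3 groups, Snord73a from 2 to 9, 2 to 12 and 3 to 11, Snord89 from 2 to 11, 4 to 10 and 0 to 7, and Snord35a from 2 to 5, 0 to 7 and 1 to 12.

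**Figure D3:**
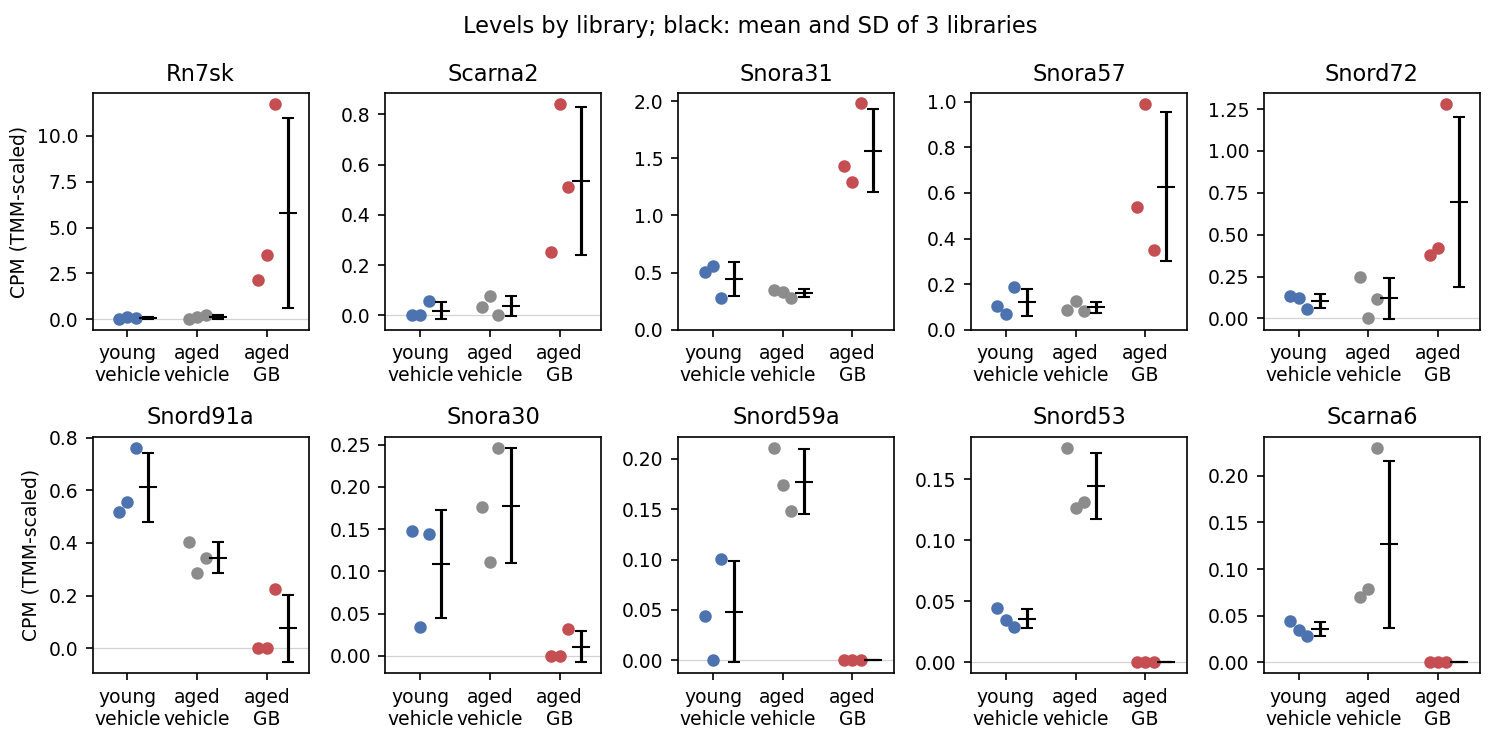
Level in TMM-scaled CPM (vertical axes) of 10 members in each library (points) with the mean and SD of 3 libraries (black). The upper row shows genes whose GB libraries lie above all vehicle libraries; in the lower row the GB libraries lie below all of aged vehicle, and Snord59a overlaps young vehicle at 0.

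Aged GB against aged vehicle is the comparison in which members were called. With the filter on low counts used for all genes, 9 of the 22 members entered the test, and 4 were higher and 0 lower with GB. Over all 17534 genes tested 24.4% were higher and 28.8% lower. Over the 9 tested members the median log2 fold change was 2.50, and it was -0.05 for all genes. Of the 9, 7 had an unadjusted p under 0.05. A member with low counts passed that filter only if it was high enough in some group, so these 9 do not stand for all 22. Rn7sk, Scarna2, Snora57 and Snord72 passed through the GB group, whereas Snora30 and the 4 members without a GB count failed. The median of 2.50, the calls in 1 direction and the 7 low p-values are thus partly set by the filter. They do not measure a lean of the members. Other short genes leaned the same way: of 329 tested genes of at most 414 bases, the longest member's length, that are not members, 145 were higher and 61 lower, with a median of 1.02. With an offset for each library's trend of counts on gene length, Rn7sk remained called (log2 fold change 4.26, adjusted p = 0.00124, edgeR), while Snora31 (1.04, adjusted p = 0.0758), Snora57 (1.39, 0.138) and Scarna2 (2.68, 0.0781) did not.

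All 22 members could be tested when every gene with 30 or more counts was kept. Then 5 were higher (Rn7sk, Snora31, Snora57, Scarna2 and Snord138) and 4 lower (Snord53, Scarna6, Snord59a and Snora30), against 20.6% higher and 27.2% lower of 20008 genes. Snord138 had a log2 fold change of 2.64 ± 0.84 (SE; adjusted p = 0.0209, edgeR), and its call was lost without any single aged vehicle library or without GB library 1, and with library totals or the replicate block (adjusted p = 0.0509 to 0.0752). Snord53 had an adjusted p of 0.0157, Scarna6 of 0.0250 (0.0606 with the replicate block), Snord59a of 0.0255 and Snora30 of 0.0357 (edgeR). Snord53 was not tested without an aged vehicle library, nor Scarna6 without any vehicle library, as each then fell under 30 counts. The call of Snora30 was lost without any of 5 libraries: young vehicle 3 (0.0502), aged vehicle 1 (0.0615), aged vehicle 3 (0.0918), GB 1 (0.0759) or GB 2 (0.0808). For Snord59a it was lost without aged vehicle 1 (0.0552), aged vehicle 2 (0.0520) or GB 2 (0.0504). Leaving out 1 library gave 2 to 5 higher and 0 to 5 lower: 2 and 2 without aged vehicle 3, 4 and 0 without aged vehicle 1, 4 and 1 without aged vehicle 2, 3 and 2 without GB 2, and 5 and 2 without young vehicle 3. Snord71 was just outside at 0.0553 and Snora69 at 0.0726; library totals called Snord71, and limma-voom called Snora69 and Snora78. The median log2 fold change was 1.25 over the 22 members and -0.08 over all genes, and 0.71 over 579 other genes of at most 414 bases, 151 higher and 103 lower. By class the medians were 1.89 for the 8 H/ACA genes and 0.17 for the 11 C/D genes, and this difference between classes was not tested. The minimum of 30 also let in members with few counts only through the group where they were high. Of the 36 counts of Snora69, 29 were with GB, and all 33 of Snord53 were in vehicle libraries. The calls and medians with that minimum are thus partly set by it.

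Counted without a model, 9 of the 22 members (40.9%) had all 3 GB libraries above all 3 aged vehicle libraries and 6 (27.3%) had them below. Over the 20008 genes these shares were 24.9% and 31.1%. Against all 6 vehicle libraries, 8 members (36.4%) had GB wholly above and 5 (22.7%) wholly below, where all genes gave 20.3% and 24.9%. The 8 were Rn7sk, Scarna2, Snora31, Snora57, Snora69, Snora78, Snord72 and Snord138, the last not when taken as a share of library totals.

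Age was the first comparison of the study, aged vehicle against young vehicle. None of the 9 tested members was called, where 4.32% of all genes were higher and 4.28% lower in aged muscle. Snora41 alone among the 9 had an unadjusted p under 0.05, with a log2 fold change of 1.59 ± 0.70 (SE; adjusted p = 0.203, edgeR), and its 3 aged vehicle libraries at 13 or 14 counts lay above the young vehicle libraries at 4 to 6. DESeq2 and limma-voom also called 0. With age, the log2 fold change of Rn7sk was 0.76 ± 0.90 and that of Snora31 -0.46 ± 0.45 (SE; adjusted p = 0.692 and 0.616, edgeR). With all 22 members tested, 0 were called and 0 had an unadjusted p under 0.05, against 3.55% higher and 3.46% lower of all genes. Aged vehicle libraries lay wholly above young vehicle for 5 members (Snora41, Snord59a, Snord53, Scarna6 and Snora21) and wholly below for 2 (Snord91a and Snora34), 22.7% and 9.09% of the 22, where all genes gave 16.2% and 15.8%.

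Most members lie inside other genes. In GENCODE M21, 18 of the 21 members found lie within a longer gene on the same strand and outside its exons; Rn7sk, Scarna2 and Snora57 lie in none. Reads of an intronic gene and of the unspliced host cannot be told apart in a count table. Member and host were compared in 15 pairs, with the host's value from the fit under the filter on low counts and the member's from the fit of genes with 30 or more counts. With GB, 7 of the 15 hosts were higher and 5 lower, and member and host had the same sign in 13 pairs. Some of these signs rest on values near 0, such as Snord89 at 0.17 ± 1.22 (SE) and the host Wdr43 at -0.09. Spearman's correlation of the 2 log2 fold changes was 0.675 and Pearson's 0.627 over the 15 pairs, which share libraries and depth; for the 4 members without a GB count the fitted fold change depends on the prior count. With age, 7 of the 15 pairs had the same sign, no host was called, and the correlations were 0.482 and 0.402.

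Genes of the translation machinery were among the hosts that rose with GB. Tpt1, host of Snora31 and source of translationally controlled tumour protein, had 1425 ± 36.8 CPM in aged vehicle and 5270 ± 104 with GB, a rise of 1.89 on the log2 scale (edgeR, adjusted p = 1.04e-09), beside 2.25 for Snora31 in the fit of genes with 30 or more counts. Rpl37, the ribosomal protein gene that hosts Snord72, rose by 2.21 and Rpl39, host of Snora69, by 2.46 (edgeR, adjusted p = 2.69e-09 and 1.31e-09). Eef1b2, host of Snora41 and a subunit of elongation factor 1, rose by 1.30 (adjusted p = 4.33e-08, edgeR).

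A pair of hosts fell steeply together with low GB counts of their members. Tsr1, a ribosome assembly factor and host of Snord91a, went from 15.8 ± 1.19 CPM in aged vehicle to 1.73 ± 0.931 with GB, a log2 fold change of -3.19 (edgeR, adjusted p = 1.15e-06). Srcap, a chromatin remodeller and host of Snora30, went from 2.97 ± 0.586 to 0.312 ± 0.166 CPM, a log2 fold change of -3.24 (edgeR, adjusted p = 2.76e-05). Snord91a had 0 to 7 counts in the same GB libraries and Snora30 had 0 or 1.

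The hosts of the 4 members without a GB count differed less. Ap1g1, host of Snord71, went from 34.2 ± 3.91 CPM in aged vehicle to 16.7 ± 4.52 with GB, a log2 fold change of -1.03 (edgeR, adjusted p = 0.000292). Atp5b, host of Snord59a, was also lower (-0.39, adjusted p = 0.00133), while Wdr43, host of Snord53 (-0.09, adjusted p = 0.548), and Atg16l1, host of Scarna6 (-0.15, adjusted p = 0.171, all edgeR), were not called. Rpl23, host of Snora21, rose by 1.87 (edgeR, adjusted p = 4.38e-09), while the log2 fold change of Snora21 was -0.39 and was not called. Rps3a1, host of Snord73a, and Gm15832, host of Snord89, rose by 1.90 and 1.92 (edgeR, adjusted p = 4.93e-09 and 0.0167). Their members stood at 0.65 and 0.17 and were not called. Kansl2, host of Snora34, had a log2 fold change of -0.34 (adjusted p = 0.00795, edgeR) beside 1.54 for Snora34. Differences between member and host were not tested. Ribosomal protein genes have many processed copies, so the levels of these hosts are uncertain too.

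**Figure D4:**
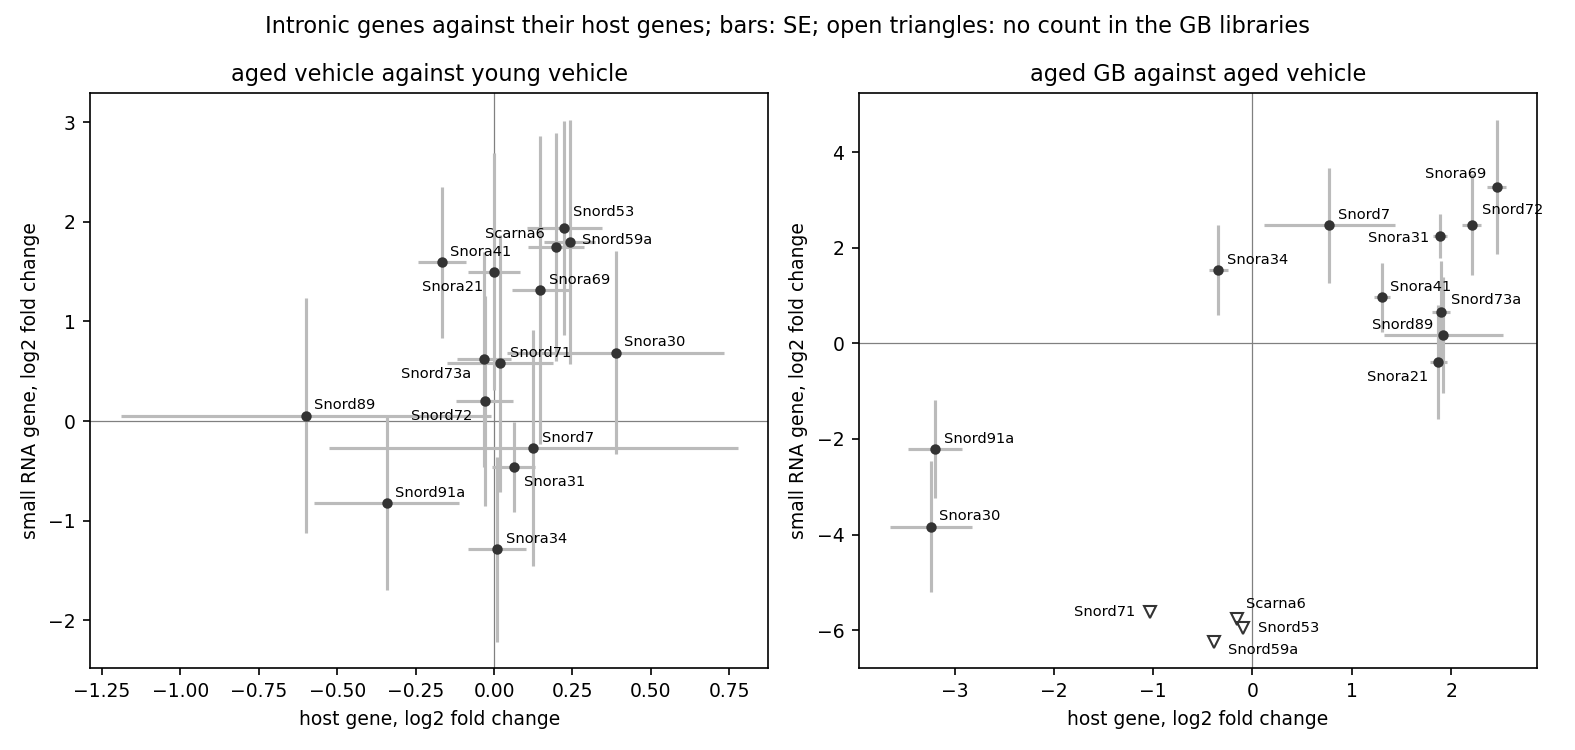
Log2 fold change of each intronic member (vertical axis) against that of its host gene (horizontal axis) for 15 pairs, with SE bars, in the age comparison (left) and the GB comparison (right); open triangles mark members without a GB count, whose fitted value is no bound. In the GB comparison 13 of 15 pairs have the same sign, and Snora21 and Snora34 are the exceptions.

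Protein partners of these RNAs were described from fixed lists by the RNA counts of their genes, not by protein. The background was 24.4% of all genes higher and 28.8% lower with GB. Of 4 C/D particle proteins 2 were higher (Nop56 by 1.08 and the methyltransferase fibrillarin, Fbl, by 0.64 on the log2 scale) and 1 was lower (Nop58, -0.39). Of 6 H/ACA particle proteins 4 were higher, with Nhp2 at 1.95 and Nop10 at 1.05, and the pseudouridine synthase gene Dkc1 was lower at -1.05 (edgeR, adjusted p = 8.56e-05). Of 11 assembly factors 5 were higher and 2 lower, with Pih1d1 at 1.39 and the cap hypermethylase gene Tgs1 at -1.11. The 20 tested noncoding snoRNA host genes gave 13 higher and 1 lower, with a median of 1.92. Among them Snhg8 went from 5.83 ± 0.340 CPM in aged vehicle to 48.3 ± 4.23 with GB, a rise of 3.05 (edgeR, adjusted p = 3.05e-09), and Snhg6 rose by 2.19. No member lies in Snhg8 or Snhg6.

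Calls among 7SK's own partners were near the shares of all genes, of which 24.4% were higher and 28.8% lower with GB. Of 7 proteins of the 7SK particle and P-TEFb, 2 were higher and 2 lower, which says nothing of the partners as a group. Cdk9, the P-TEFb kinase, rose by 0.91 and Hexim2, an inhibitor, by 0.99, while Ccnt1, a cyclin of P-TEFb, had a log2 fold change of -0.83 and Larp7, which binds the 7SK 3′ end, of -0.46 (edgeR, adjusted p = 1.39e-05, 0.00165, 0.000285 and 0.0228). Hexim1 (0.07), Mepce (0.30) and Ccnt2 (0.18) were not called. Of 20 genes of RNA polymerase III, which makes 7SK, 6 were higher and 7 lower, also near those shares, with Bdp1 at -1.40 and Gtf3c1 at -0.84. The signal recognition particle, whose RNA was near absent, gave 4 of 9 higher (Srp14 by 1.80 and Srp9 by 1.67) and 4 lower.

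For the spliceosomal RNAs, whose genes had almost no counts, most protein partners had mRNAs with enough counts to test. Of the 27 listed spliceosomal particle genes, and of the 27 of snRNA transcription and maturation, 26 each passed the filter on low counts. Of 26 spliceosomal particle proteins 11 were higher and 8 lower, with Snrpd2 and Snrpg each at 1.99. Of 10 LSm and U6 proteins 7 were higher and 1 lower (Lsm6 at 1.47, Lsm4 at 1.26). Of 9 proteins of the U11/U12 and U7 particles 5 were higher and 2 lower, with Zcrb1 at 2.16 (from 77.0 ± 2.51 to 343 ± 8.22 CPM) and Lsm10 at 1.68. Of 26 genes of snRNA transcription and maturation 8 were higher and 7 lower (Gemin7 at 1.78, Snapc5 at 1.31). RNA polymerase I and the nucleolus gave 6 higher and 1 lower of 17 (Polr1d at 1.53, nucleophosmin, Npm1, at 0.96), and the nuclear exosome 6 higher and 5 lower of 18 (Exosc4 at 1.48, the helicase gene Mtrex at -1.20). With age these 13 lists gave 3 calls in all: Snhg14 at 0.51 (adjusted p = 0.0480), Rnpc3 at 0.68 (0.0416) and Lsm11 at -1.08 (0.0286, all edgeR).

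Markers of other cell types also differed with GB, and in bulk tissue fewer cells of a type and less RNA per cell cannot be told apart. Of 5 endothelial markers 0 were higher and 4 lower, with sums of 500.2 to 506 CPM in aged vehicle and 234 to 271 with GB. Of 4 red blood cell markers all were lower (1112 to 2055 against 643 to 754 CPM), and of 6 tendon and fibroblast markers 1 was higher and 5 lower (629 to 828 against 399.5 to 492 CPM). Of 4 adipocyte markers 3 were higher and 0 lower (25.4 to 33.9 against 56.1 to 112 CPM), of 6 tested neuron and Schwann cell markers 3 were higher and 0 lower (99.9 to 111 against 145 to 236 CPM), and of 8 immune cell markers 1 was higher and 1 lower (13.7 to 18.7 against 12.4 to 14.9 CPM). The part of cell makeup in the results for the small RNA genes was not tested.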

How the data were processed

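RNA-seq counts of 9 gastrocnemius libraries in 3 groups were analysed. The labels' protocols give TRIzol and chloroform for the RNA and a KAPA mRNA HyperPrep kit for the libraries. Whole-number raw counts per gene, with gene lengths, were deposited by the authors in 1 table; HISAT2, SAMtools, FastQC and DESeq2 appear, with no version, in the submitters' processing notes beside both GRCm39 and mm10. Read counter, annotation and strand setting: not given in the sources used here.

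All genes were fitted with edgeR 4.0.16 (R 4.3.3): filterByExpr (minimum count 10, total 15; 17534 genes), TMM factors and a quasi-likelihood model of 3 group means with robust=TRUE. P-values were two-sided and Benjamini-Hochberg adjusted over all genes tested, with calls at 0.05. SE is the log2 fold change over the root of F. Replicate libraries differed beyond sampling noise (chi-square per degree of freedom 15.2 to 54.6). A group at 0 was given a one-sided 95% limit of 3 counts over the group. The exact interval of a count of 0 ends at 3.69, with which the fold limits would be smaller. Fold limits set it against the pooled aged vehicle level, whose counting error was left out. Intervals are exact (95%). Alternatives used other scalings and filters, DESeq2 1.42.0, limma-voom (limma 3.58.1), a length offset (lowess span 0.3), the replicate block and left-out libraries; combinations with the 30-count minimum, and limits without 1 aged vehicle library, were added after seeing the data. The procedure was tested on simulated data.

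Members, classes and gene lists were chosen with earlier results of these data known. Named beside the members are 12 classical small RNAs (among them Rmrp and Terc), host genes, and Malat1, Neat1, mt-Rnr1 and mt-Rnr2. So are up to 2 called genes with the smallest p per list and comparison. Nop58, Dkc1, Hexim1, Hexim2, Larp7, Mepce, Ccnt2, Rn18s-rs5 and the hosts of less abundant members were named after their values were seen. Hosts are the longest same-strand gene of GENCODE M21 that spans a member. A further host gene is not reported here.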

Additional observations from a re-analysis of the deposited data

How the results depend on the processing

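No member was called with age under any alternative. With GB, Rn7sk was called in all 20 alternatives (adjusted p from 3.69e-14 to 0.00732) and Snord53 in all 11 that had it. None of those 11 left out an aged vehicle library, as Snord53 then fell under 30 counts. Without any filter 5 members were higher and 2 lower, and with the 30-count minimum 5 and 4. The number lower was 1 (Snord91a) with library totals, DESeq2, limma-voom or the length offset, and the number higher fell to 1 with that offset. Library totals moved the median of all genes from -0.05 to -0.62. With the 30-count minimum, 3 were higher and 6 lower with totals, 6 and 5 with DESeq2, 8 and 5 with limma-voom, and 4 and 4 with the length offset. Leaving out 1 library gave 3 to 6 higher and 0 to 3 lower with the filter on low counts (4 and 3 without GB 3), and 2 to 5 higher and 0 to 5 lower with the 30-count minimum (4 and 5 without GB 3). The replicate number as a block gave 4 higher and 0 lower, and with the 30-count minimum 3 and 3. Deviations of libraries of the same number had correlations of -0.0282 to 0.0566, and those of different numbers -0.0507 to 0.0305. These values show no pairing by number, but they cannot exclude it.

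Uncalled log2 fold changes reversed as follows, the cause not tested; ranges are those over single left-out libraries. With GB, Snora41 was -0.28 with the length offset. Snord89 was -0.33 with totals, -0.35 with limma-voom, -0.12 with the replicate block and -0.69 to 0.80 (negative values also at -0.0746 and -0.0583). Snord73a ranged from -0.14 to 1.24, and Snora21 was 0.18 without GB 1. With age, Snord7 was 0.85 with limma-voom, 0.14 with the block and -0.86 to 1.22. Snord72 was -0.79, -0.14 and -0.83 to 0.78 in the same order. Snora57 ranged from -0.55 to 0.18 and Scarna2 from -0.18 to 4.04.

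Shares in ppm without mitochondrial genes were 1.39 (aged vehicle) and 3.54 (GB) for H/ACA, and 3.21 (young) and 3.86 (aged vehicle) for all members. Without the most abundant member the C/D share was 0.912 in young, the H/ACA share 0.646, 0.827 and 1.45, the scaRNA share 0 with GB, and the summed share 2.82 in young and 4.91 with GB. From 10 counts up, young and aged vehicle had 2.23 and 2.52 for C/D, 1.30 and 1.34 for H/ACA, and 3.69 and 4.21 in sum. From 100 counts up, C/D had 0.812, 0.526 and 0.589, H/ACA 0.640, 0.479 and 1.69, and the sum 1.55 and 1.17 in vehicle. Counts under 10 per library limit most members.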
